A study of Mus musculus with 8 samples.

Results

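Gamma and delta T cell receptor segment genes were followed in natural killer T (NKT) cells of the mouse thymus, with and without Ezh2. The 10 genes comprised the constant genes Trgc1, Trgc2 and Trdc and the variable genes Trgv2, Trgv4, Trgv5, Trgv6, Trdv2-1, Trdv2-2 and Trdv5. They were chosen by name from the 27179 gene identifiers of the deposited counts, which hold 25 gamma and delta segments in all. RNA-seq was done on 4 Ezh2-KO and 4 WT libraries of C57BL/6 mice, with the NKT cells split by their surface CD44 and NK1.1. The subset without either protein, commonly placed earliest in thymic NKT development, gave 1 library for each genotype. The CD44+ NK1.1- subset gave a pair of biological replicates for each genotype, and the CD44+ NK1.1+ subset, commonly placed last, again 1 library for each. The labels name no other allele or agent, and they do not give the Cre driver of the knockout, if any, the age of the mice, the number of animals per sample or if all 3 subsets were taken from shared animals.

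A gamma-delta T cell carries a receptor built from 1 gamma and 1 delta chain, and each chain is assembled when the recombinase joins a variable segment to joining segments ahead of a constant gene. NKT cells are alpha-beta T cells: their receptor has an alpha and a beta chain and recognises lipids shown by CD1d. The mouse gamma locus is made of 4 clusters, each with its own constant gene and joining segment, while the delta segments lie inside the alpha locus. Ezh2 is the methyltransferase of the Polycomb complex PRC2, which marks histone H3 at genes that are kept silent.

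The sequences of the segments decide how far a read can be assigned to 1 of them. The exon of Trgv5, which encodes the gamma chain variable region of epidermal gamma-delta T cells, has no near copy. It shares 0 of its 249 windows of 50 bases with the exons of the other constant and variable segments, and its closest relative, Trgv1, is 53.9% identical over the aligned bases. It is shown here because the largest difference between the genotypes at high counts was measured on it. The build is GRCm38 (mm10), plus strand, chr13:19192428-19192725, from the GENCODE transcripts.
Trgv5: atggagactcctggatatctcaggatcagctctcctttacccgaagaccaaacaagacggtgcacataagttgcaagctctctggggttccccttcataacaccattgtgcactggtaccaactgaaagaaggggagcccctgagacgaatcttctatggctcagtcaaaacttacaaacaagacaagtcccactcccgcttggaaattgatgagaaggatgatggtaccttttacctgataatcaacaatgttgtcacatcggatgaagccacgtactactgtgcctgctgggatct

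Both Trdv2 genes, delta chain variable genes, are a near duplicate pair. Their exons differ at 7 of 299 bases and share 73.2% of windows, so that a read can often come from either. Trdv2-1 lies at chr14:53946362-53946660 and Trdv2-2 at chr14:53961304-53961602, both on the plus strand, and capitals mark the bases that differ between them.
Trdv2-1: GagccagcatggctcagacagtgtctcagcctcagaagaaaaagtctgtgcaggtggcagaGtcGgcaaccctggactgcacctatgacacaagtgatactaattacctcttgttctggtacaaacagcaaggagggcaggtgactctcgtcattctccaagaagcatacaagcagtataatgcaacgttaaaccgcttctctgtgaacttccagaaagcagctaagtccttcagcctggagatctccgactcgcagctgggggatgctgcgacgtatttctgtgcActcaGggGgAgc
Trdv2-2: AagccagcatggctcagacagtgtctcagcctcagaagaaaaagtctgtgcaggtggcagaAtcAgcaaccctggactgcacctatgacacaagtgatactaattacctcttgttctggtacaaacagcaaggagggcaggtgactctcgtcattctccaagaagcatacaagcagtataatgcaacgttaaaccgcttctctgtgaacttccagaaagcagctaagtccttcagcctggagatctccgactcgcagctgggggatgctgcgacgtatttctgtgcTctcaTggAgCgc

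The first exons of the gamma constant genes Trgc1 and Trgc2 are 97.3% identical over 330 bases. Of the windows of the whole constant region, 40.3% of Trgc1 and 27.7% of Trgc2 also occur in another gamma constant gene, Trgc3 included.

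Among the other members, Trgv2 shares 5.43% of its windows with Trgv1 and Trgv3, and Trgv4 and Trgv6 share 0%. Trdc also shares 0%, but for its coding exons alone, from which its windows were taken. Trdv5 is the exception of the delta locus. It lies downstream of Trdc in the opposite orientation, and a GENCODE exon of Trdc covers 207 bases of it (chromosome 14, 54148662 to 54148868), so that 61.0% of its windows occur in the GENCODE exons of Trdc. The RefSeq span of Trdc ends before Trdv5, at 54146108. The strand setting of the counting is not given in the sources used here, so reads of Trdv5 and of a longer Trdc transcript cannot be told apart.

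By RefSeq on GRCm38 the gamma members lie on chromosome 13. They are Trgv4 (gene ID 21638, 19184981 to 19185506), Trgv6 (21640, 19190368 to 19190929), Trgv5 (21639, 19192278 to 19192725), Trgc1 (107573, 19214103 to 19216618), Trgc2 (107574, 19305060 to 19307551) and Trgv2 (21636, 19336573 to 19337026). The delta members lie on chromosome 14. They are Trdv2-1 (100101942, 53946073 to 53946660), Trdv2-2 (320913, 53960993 to 53961602), Trdc (100123473, 54142851 to 54146108) and Trdv5 (626545, 54148662 to 54149201).

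Total counts ranged from 20308745 to 22995090 per library, and the 10 genes took up between 0.0690% and 0.160% of them. A gene with 0 reads could have had up to 3 counts, which is between 0.130 and 0.148 CPM (a gene's counts relative to the total of its library) here, and this limit and all intervals allow for counting error alone. All levels are CPM scaled by the trimmed mean of M values (TMM). Differences are on the log2 scale, each with the SE from edgeR, and a gene is called where its adjusted p, by edgeR's quasi-likelihood test with Benjamini-Hochberg adjustment over all 13794 genes tested, was under 0.05. Ezh2 itself was lower in each Ezh2-KO subset, at 78.4 CPM in CD44- NK1.1-, 83.3 and 77.9 CPM in CD44+ NK1.1- and 40.4 CPM in CD44+ NK1.1+ cells, against 109, 113 and 136, and 57.2 CPM in WT. The log2 difference was -0.63 in CD44+ NK1.1- cells (SE 0.12, adjusted p = 0.0407). The counts are summed over the gene, so they do not show whether a deleted exon is missing. Zbtb16, which encodes PLZF, lay between 114 and 449 CPM in the 8 libraries and the alpha constant gene Trac between 545 and 1394 CPM. Zbtb16 is also on the gamma-delta list below and Trac serves any alpha-beta T cell, so neither sets NKT cells apart. Among 8 listed NKT markers, both included, 0 were called higher and 2 lower in the CD44+ NK1.1- Ezh2-KO pair (median -0.27), where 3.78% and 1.16% of all tested genes were. Mean CPM there, against WT, was 348 against 777 for Il2rb, 137 against 211 for Cd44 and 45.9 against 143 for Klrb1c. Cd5 (351 against 282), Trbc2 (641 against 561) and Cd3e (398 against 382) were higher. Markers of B cells, myeloid cells and thymic epithelium summed to at most 4.78, 13.9 and 5.79 CPM in any library.

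Of the 10 segment genes, 7 reached the cutoff of the filter on low counts, 0.461 CPM, in libraries of both genotypes, and of these 5 were called higher and 0 lower in Ezh2-KO CD44+ NK1.1- cells, where 3.78% of all tested genes were called higher and 1.16% lower. The called genes were Trgv5, Trdc, Trgc1, Trgv4 and Trgv6. The other 3, Trdv2-1, Trdv2-2 and Trdv5, reached the cutoff in 3 Ezh2-KO libraries, all of them CD44+, and in 0 WT libraries, so they were tested through the genotype in which they were high. Trdv2-1 and Trdv2-2 were called as well, which is given as a description and adds nothing to the count. Both Ezh2-KO libraries of this subset lay above both WT libraries for each of the 7 genes, an order that 26.5% of tested genes showed. The other 3 genes had the same order, again as a description.

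**Figure D1:**
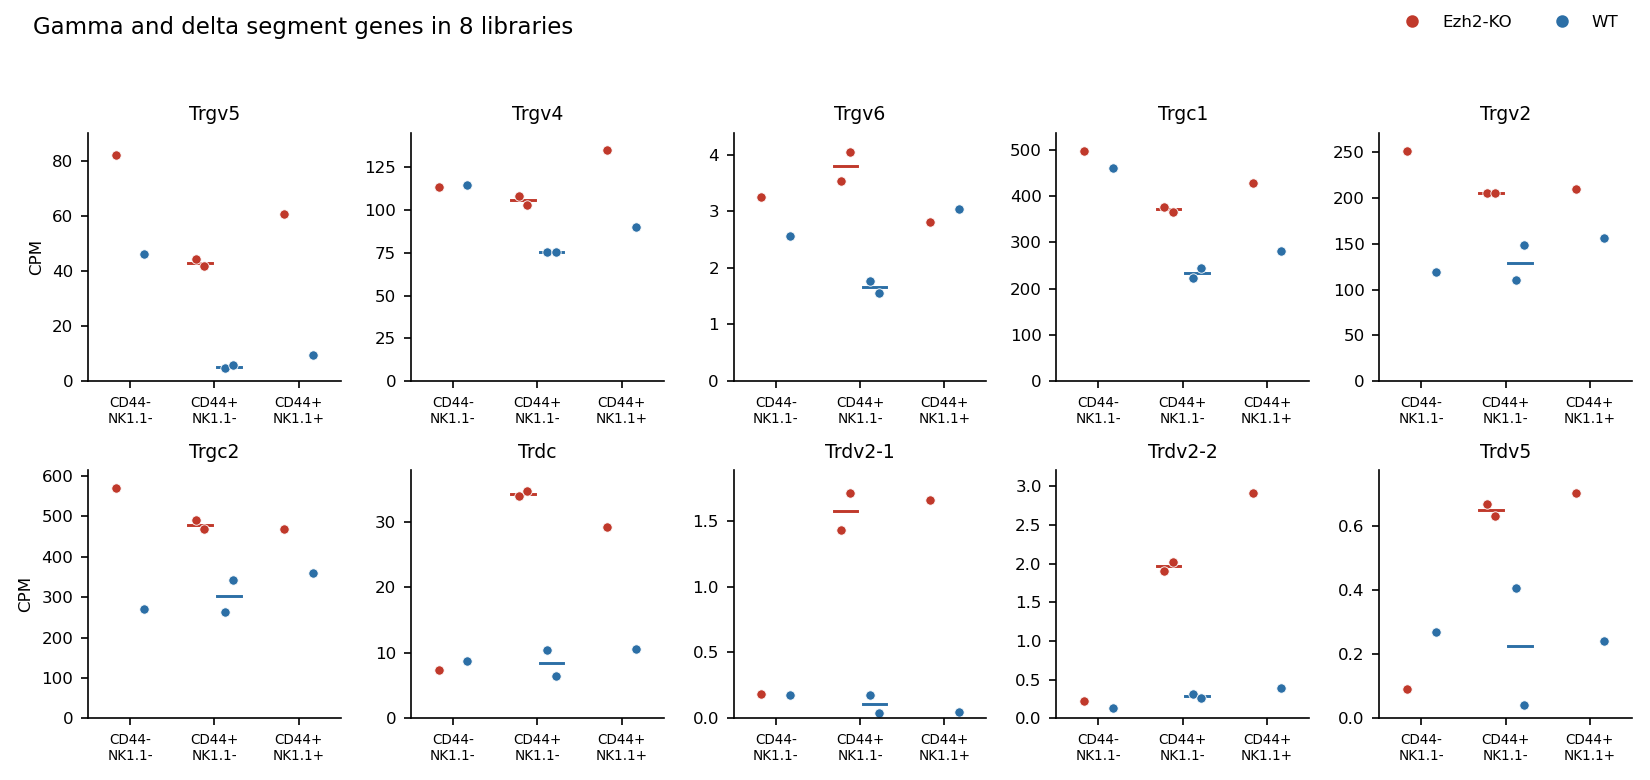
Level of each of the 10 segment genes in CPM (vertical axes start at 0 and differ between panels) by subset, Ezh2-KO left of WT. Points are libraries and bars the means of the 2 CD44+ NK1.1- replicates. Trgv5 stands at 44.3 and 41.9 CPM in Ezh2-KO CD44+ NK1.1- cells, against 4.55 and 5.63 CPM in WT, and Trdc at 33.9 and 34.7 CPM, against 10.4 and 6.41 CPM.

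Levels of different segments were compared per kilobase of counted length. In Ezh2-KO CD44+ NK1.1- cells the order from high to low was Trgc2 (974 and 934 CPM per kilobase in the 2 replicates), Trgc1 (728 and 708), Trgv2 (587 and 587), Trgv4 (259 and 245), Trgv5 (130 and 123), Trdc (30.7 and 31.4), Trgv6 (8.69 and 9.98), Trdv2-2 (5.48 and 5.82), Trdv2-1 (4.11 and 4.91) and Trdv5 (1.91 and 1.81). No neighbours in that order overlapped between replicates. In WT CD44+ NK1.1- cells the first 7 places were the same, from Trgc2 at 525 and 680 CPM per kilobase to Trgv6 at 4.33 and 3.81, with Trgv5 at 13.4 and 16.5 and Trdc at 9.38 and 5.80. Trdv2-2 (0.907 and 0.741), Trdv5 (1.16 and 0.123) and Trdv2-1 (0.518 and 0.124) came last in WT and overlapped each other through Trdv5. Within the 10 genes, every gamma gene except Trgv6, which lay below Trdc, was above the delta genes per length in these CD44+ NK1.1- libraries of both genotypes.

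Among the gamma variable genes, Trgv5 differed furthest. It measured 82.1 CPM in CD44- NK1.1-, 44.3 and 41.9 CPM in CD44+ NK1.1- and 60.7 CPM in CD44+ NK1.1+ cells of Ezh2-KO mice. In WT mice it measured 46.1 CPM in CD44- NK1.1-, 4.55 and 5.63 CPM in CD44+ NK1.1- and 9.45 CPM in CD44+ NK1.1+ cells. The WT CD44+ libraries were therefore far below the other 5, and only the WT CD44- NK1.1- library reached into the range of the Ezh2-KO libraries. The difference was 3.08 on the log2 scale between the CD44+ NK1.1- pairs (SE 0.15, adjusted p = 0.000514), and it was called in all 16 alternatives, from 2.93 to 3.24. Among CD44+ NK1.1+ cells it was 2.68 (SE 0.20, adjusted p = 0.00841), called in all 13 alternatives, and there Trgv5 was the 1 member called, where 0.79% of all tested genes were called higher and 0.159% lower. In CD44- NK1.1- cells it was 0.83 (SE 0.18, adjusted p = 0.209).

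The other variable genes of its cluster differed less. Trgv4, which is used by many adult and interleukin-17 producing gamma-delta T cells, measured 113 CPM in CD44- NK1.1-, 108 and 103 CPM in CD44+ NK1.1- and 135 CPM in CD44+ NK1.1+ cells of Ezh2-KO mice, against 115, 75.6 and 75.3, and 90.2 CPM in WT. The earliest subset had like levels in both genotypes, and both CD44+ subsets were higher in Ezh2-KO. Trgv4 was called in CD44+ NK1.1- cells, at 0.49 (SE 0.09, adjusted p = 0.0380). Trgv6, the variable gene of a fetal wave of interleukin-17 producing gamma-delta T cells, stayed low, with 3.53 and 4.05 CPM in Ezh2-KO CD44+ NK1.1- cells against 1.76 and 1.55 CPM in WT (1.20, SE 0.23, adjusted p = 0.0413). Outside that subset its genotypes lay close, at 3.25 CPM in Ezh2-KO and 2.56 CPM in WT CD44- NK1.1- cells and at 2.82 CPM in Ezh2-KO and 3.04 CPM in WT CD44+ NK1.1+ cells.

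The constant gene of that cluster, Trgc1, measured 498 CPM in CD44- NK1.1-, 377 and 366 CPM in CD44+ NK1.1- and 428 CPM in CD44+ NK1.1+ cells of Ezh2-KO mice. In WT mice it measured 461, 223 and 245, and 282 CPM. As for Trgv4, its Ezh2-KO and WT levels were farther apart in the CD44+ subsets, with 372 ± 7.47 CPM in Ezh2-KO and 234 ± 15.6 CPM in WT CD44+ NK1.1- cells (SD, n = 2 each) and a log2 difference of 0.67 (SE 0.10, adjusted p = 0.0173). Since Trgc1 and Trgc2 share windows, part of either value may come from reads of the other.

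Trgc2 and Trgv2, the constant and the variable gene of the second cluster, had like values relative to WT, in another order of subsets. Trgc2 measured 570 CPM in CD44- NK1.1-, 490 and 470 CPM in CD44+ NK1.1- and 469 CPM in CD44+ NK1.1+ cells of Ezh2-KO mice, against 272, 264 and 342, and 361 CPM in WT. Trgv2 measured 251, 205 and 206, and 210 CPM in the same Ezh2-KO subsets, against 120, 110 and 148, and 157 CPM in WT. For both genes all 4 Ezh2-KO libraries were above all 4 WT libraries, as for 3.96% of tested genes. The gap was widest in CD44- NK1.1- cells, where the log2 difference was 1.07 for Trgc2 (SE 0.20, adjusted p = 0.158) and 1.07 for Trgv2 (SE 0.21, adjusted p = 0.183). The CD44+ NK1.1- values were 0.66 (adjusted p = 0.0540) and 0.67 (adjusted p = 0.0684), so that edgeR called neither gene in a single subset, while DESeq2 called both in CD44- NK1.1- and in CD44+ NK1.1- cells, where it called 0.681% and 4.83% of genes. Both were called over the 3 subsets, with 0.69 for Trgc2 (SE 0.12, adjusted p = 0.0125) and 0.71 for Trgv2 (SE 0.12, adjusted p = 0.0126).

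**Figure D2:**
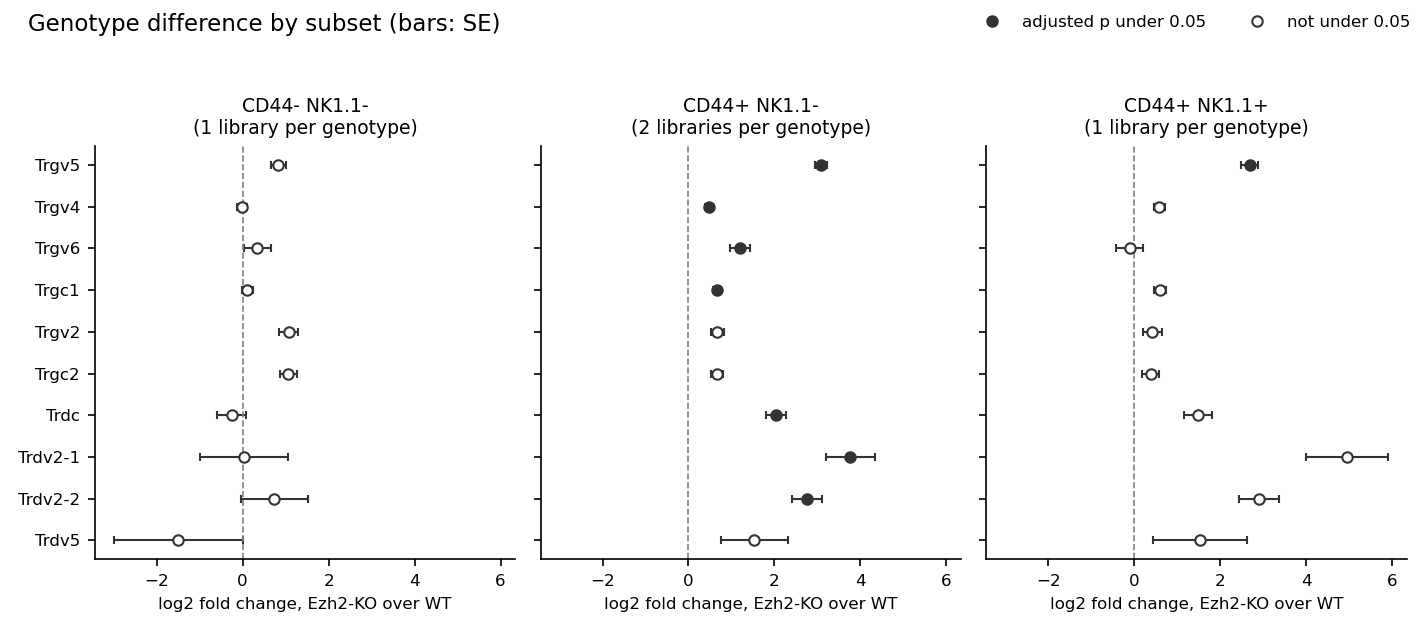
Log2 fold change of Ezh2-KO over WT (horizontal axes, shared) for the 10 segment genes in the 3 subsets, with SE bars. Filled points have an adjusted p under 0.05: 7 genes in CD44+ NK1.1-, 1 in CD44+ NK1.1+ and 0 in CD44- NK1.1- cells, and Trgv5 is the gene filled in 2 panels (3.08 and 2.68). The 7 include Trdv2-1 and Trdv2-2, which passed the filter through Ezh2-KO libraries alone and are shown as a description.

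The delta genes were low in the earliest subset of both genotypes. Trdc, the delta constant gene, measured 7.33 CPM in CD44- NK1.1-, 33.9 and 34.7 CPM in CD44+ NK1.1- and 29.2 CPM in CD44+ NK1.1+ cells of Ezh2-KO mice. In WT mice it measured 8.72 CPM in CD44- NK1.1-, 10.4 and 6.41 CPM in CD44+ NK1.1- and 10.5 CPM in CD44+ NK1.1+ cells. Only the 3 Ezh2-KO CD44+ libraries stood out, and the Ezh2-KO CD44- NK1.1- library lay among the WT libraries. Trdc differed by -0.25 (SE 0.33, adjusted p = 0.925) in the CD44- NK1.1- subset, by 2.03 (SE 0.23, adjusted p = 0.00855) in the CD44+ NK1.1- subset and by 1.47 (SE 0.32, adjusted p = 0.142) in the CD44+ NK1.1+ subset.

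The delta variable genes had few reads, so their counts are given. Trdv2-1 had 4 counts in CD44- NK1.1-, 30 and 38 in CD44+ NK1.1- and 33 in CD44+ NK1.1+ cells of Ezh2-KO mice, against 4, 4 and 1, and 1 in WT. Trdv2-2 had 5, 40 and 45, and 58 counts in the same Ezh2-KO subsets, against 3, 7 and 6, and 8 in WT. For both, the 3 Ezh2-KO CD44+ libraries were above the other 5, and those 3 alone reached the filter's cutoff. That order is thus a description and adds no evidence to the pattern of Trdc. In CD44+ NK1.1- cells the log2 difference was 3.77 for Trdv2-1 (SE 0.57, adjusted p = 0.0207) and 2.76 for Trdv2-2 (SE 0.36, adjusted p = 0.0121), each as a description, since WT libraries did not reach the filter's cutoff. With no filter both were called too and by DESeq2 neither was, again as a description. Among CD44+ NK1.1+ cells, where WT had a single read of Trdv2-1, the ratio of scaled counts was 34.4 with a 95% counting interval of 5.76 to 1399. For Trdv2-2 that ratio was 7.56 (3.59 to 18.3) and the adjusted p 0.0618. Where their exons are identical, reads of this pair cannot be told apart.

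Trdv5 had few reads in every library, at most 14. It had 2 counts in CD44- NK1.1-, 14 and 14 in CD44+ NK1.1- and 14 in CD44+ NK1.1+ cells of Ezh2-KO mice, against 6, 9 and 1, and 5 in WT. The log2 difference in CD44+ NK1.1- cells was 1.53 (SE 0.78, adjusted p = 0.335), and it rests on single WT libraries. Leaving out WT replicate 1 gave 3.75 and a call, and leaving out WT replicate 2 gave 0.67 and none, with adjusted p from 0.00330 to 0.853 over the 8 libraries left out in turn. The same 3 Ezh2-KO libraries were high for Trdc, whose GENCODE exon overlaps it.

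Of the genes called in CD44+ NK1.1- cells, Trdv2-1 and Trdv2-2 included, Trgv5 alone stayed called without Ezh2-KO replicate 1 and without Ezh2-KO replicate 2. The other 6 then had adjusted p up to 0.0573 for Trdc, 0.108 for Trdv2-2, 0.133 for Trdv2-1, 0.258 for Trgc1, 0.427 for Trgv6 and 0.489 for Trgv4, while over all 16 alternatives the log2 differences ranged from 1.72 to 2.42 for Trdc, 2.62 to 2.90 for Trdv2-2, 0.60 to 0.74 for Trgc1, 1.09 to 1.29 for Trgv6 and 0.45 to 0.53 for Trgv4. Trdv2-1 moved furthest, to 5.02 without WT replicate 1 and to 3.085 without WT replicate 2.

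In each single-library subset the fit took its error from the replicated subset and so assumed that single libraries vary as those replicates did. In CD44- NK1.1- cells 0 members were called by edgeR, where 0.181% of tested genes were called higher and 0.058% lower. There 3 members, Trgv5, Trgc2 and Trgv2, had an unadjusted p under 0.05, as had 9.04% of tested genes, and DESeq2 called 2, Trgc2 and Trgv2.

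Over the 3 subsets, in a fit with 1 genotype effect for all of them, 5 of the 7 members over the filter's cutoff in both genotypes were called higher and 0 lower, where 6.43% of tested genes were called higher and 4.89% lower. These were Trgv5 (2.37, SE 0.43, adjusted p = 0.0278), Trgv2, Trgc2, Trgc1 (0.51, SE 0.10, adjusted p = 0.0157) and Trgv4 (0.38, SE 0.10, adjusted p = 0.0409). Trdv2-1 (3.26, SE 0.65, adjusted p = 0.0186) and Trdv2-2 (2.58, SE 0.34, adjusted p = 0.00380), tested through Ezh2-KO libraries, are again a description. Trgv5 was called in 9 of 16 alternatives, its call being lost with no filter and without any 1 of the 6 CD44+ libraries (2.03 to 2.94 over all 16). Trdc reached 1.37 (SE 0.42, adjusted p = 0.0969), and was the 1 member besides Trdv5 and Trgv6 not called. The count of calls among all 10, which was 7, was 1 without either Ezh2-KO CD44+ NK1.1- replicate, 4 without WT CD44+ NK1.1- replicate 2 and 3 without either CD44+ NK1.1+ library.

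Whether the genotype difference itself changed between subsets was tested as an interaction. Between CD44- NK1.1- and CD44+ NK1.1- cells 0 members were called by edgeR, where 0.0217% of tested genes were. Among the members Trgv5 came nearest by edgeR, with a difference of -2.25 (SE 0.23, adjusted p = 0.0773), and Trdc followed with -2.28 (SE 0.41, adjusted p = 0.272). Trgv5, Trdc, Trgc1 and Trgv4 had an unadjusted p under 0.05 by edgeR, as had 4.70% of tested genes. Trdv2-1, tested through Ezh2-KO libraries, had one too, as a description. DESeq2 called 2 members, Trgv5 and Trdc, where it called 0.216% of genes. Between CD44+ NK1.1+ and CD44+ NK1.1- cells 0 members were called by edgeR or DESeq2, and 0% of genes by edgeR and 0.252% by DESeq2. There Trgv6 was the 1 member with an unadjusted p under 0.05 (-1.31, SE 0.39), as 3.76% of tested genes had. By edgeR, no genotype difference of a member was therefore shown to be particular to a subset.

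The subsets were then compared as the mean of both genotypes. From CD44+ NK1.1- over CD44- NK1.1- cells 0 members were called higher, where 1.59% of tested genes were, and 2 lower, where 1.07% were. Those were Trgv5 (-2.05, SE 0.11, adjusted p = 0.00143) and Trgc1 (-0.70, SE 0.08, adjusted p = 0.0126). For Trgv5 the difference was -0.93 (SE 0.15, adjusted p = 0.0936) within Ezh2-KO and -3.18 (SE 0.16, adjusted p = 0.00140) within WT. For Trgc1 it was -0.42 (adjusted p = 0.383) within Ezh2-KO and -0.98 (adjusted p = 0.0179) within WT. Trdc, not called there, differed by 2.22 (SE 0.31, adjusted p = 0.0608) within Ezh2-KO and -0.06 (SE 0.29, adjusted p = 0.950) within WT.

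From CD44+ NK1.1+ over CD44+ NK1.1- cells 2 members were called higher and 0 lower, where 16.4% and 16.1% of tested genes were, so that the share of members was near the background. Those were Trgv5 (0.69, SE 0.12, adjusted p = 0.00806) and Trgv4 (0.31, SE 0.08, adjusted p = 0.0269). From CD44+ NK1.1+ over CD44- NK1.1- cells, where 16% and 16.2% of tested genes were called higher and lower, Trdc (1.13, SE 0.23, adjusted p = 0.0152) was called higher, and so was Trdv2-2 (2.56, SE 0.45, adjusted p = 0.00864), which reached the filter's cutoff in CD44+ libraries alone. Trgv5 (-1.36, SE 0.13, adjusted p = 0.00118) and Trgc1 (-0.46, SE 0.10, adjusted p = 0.0148) were called lower. The difference of Trdc was 1.99 (SE 0.33, adjusted p = 0.0158) within Ezh2-KO and 0.27 (SE 0.33, adjusted p = 0.616) within WT, and that of Trdv2-2 was 3.64 (SE 0.51, adjusted p = 0.00945) within Ezh2-KO and 1.48 (SE 0.72, adjusted p = 0.242) within WT. The subset comparisons share libraries with each other and with those of genotype.

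Counts of a variable gene can be set against those of the constant gene it is joined to, which removes the scaling of the library. For Trgv2 the counts were between 41.7% and 44.7% of those of Trgc2 in all 8 libraries, and those of the joining segment Trgj2 between 8.60% and 10.3%. Trgv2, Trgj2 and Trgc2 thus kept nearly the same proportion while their level differed between the genotypes. Trgv5 did not keep a proportion to Trgc1. Its counts were 16.5% of those of Trgc1 in CD44- NK1.1-, 11.8% and 11.4% in CD44+ NK1.1- and 14.2% in CD44+ NK1.1+ cells of Ezh2-KO mice. In WT mice CD44- NK1.1- cells had 1026 counts of Trgv5 to 10257 of Trgc1, and the share was 2.04% and 2.30% in CD44+ NK1.1- and 3.35% in CD44+ NK1.1+ cells. Trgv4, of the same cluster, ranged from 22.8% to 31.6% in Ezh2-KO and from 24.9% to 33.9% in WT libraries. Trgv6 ranged from 0.653% to 1.11% in Ezh2-KO and from 0.556% to 1.08% in WT libraries. Trgv1, a variable gene outside the members, also had a higher share of its constant gene Trgc4 in Ezh2-KO. That share was 14.7% to 18.5% in Ezh2-KO and 10.6% to 13.7% in WT libraries. Relative to Trgv4 the counts of Trgv5 were 72.3%, 40.9% and 40.7%, and 44.9% in the same order of Ezh2-KO subsets, against 40.2%, 6.02% and 7.49%, and 10.5% in WT. Counts per gene do not separate rearranged from unrearranged transcripts.

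**Figure D3:**
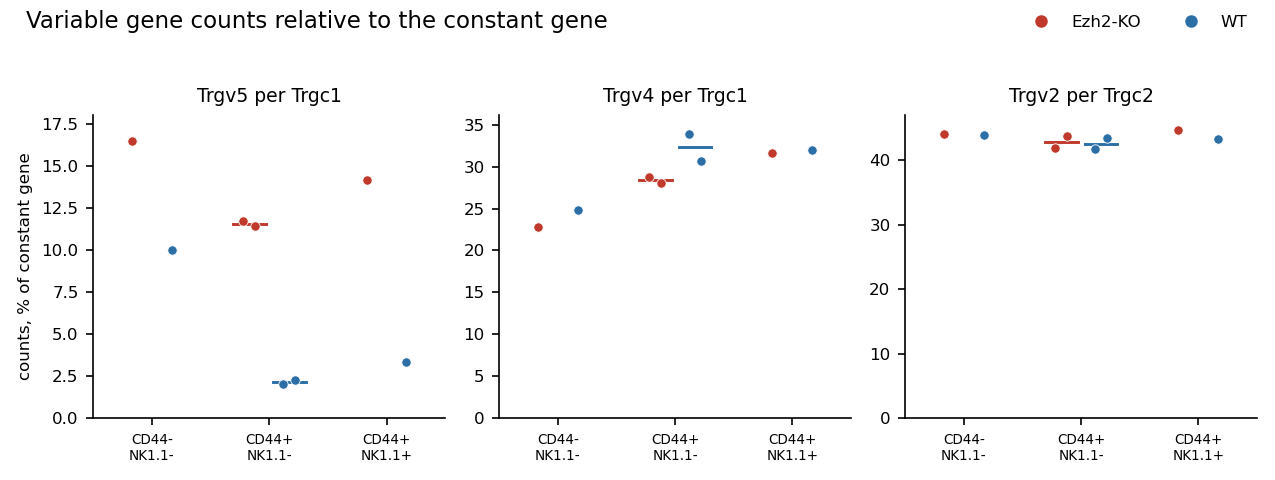
Counts of 3 variable genes as a percentage of the counts of the constant gene of their cluster (vertical axes start at 0) by subset, Ezh2-KO left of WT. Points are libraries and bars the means of the 2 CD44+ NK1.1- replicates. Trgv5 lies between 11.4% and 16.5% of Trgc1 in Ezh2-KO libraries and between 2.04% and 3.35% in the WT CD44+ libraries, while Trgv2 stays between 41.7% and 44.7% of Trgc2 in all 8 libraries.

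The 4 gamma clusters had different ratios between the genotypes. Cluster 1, which holds Trgv4, Trgv5, Trgv6 and Trgc1, summed to 748 CPM in CD44- NK1.1-, 571 and 552 CPM in CD44+ NK1.1- and 669 CPM in CD44+ NK1.1+ cells of Ezh2-KO mice, against 673, 324 and 352, and 411 CPM in WT. The ratio of Ezh2-KO to WT was 1.11, 1.66 and 1.63 in the order of subsets. Cluster 2, with Trgv2 and Trgc2, had ratios of 2.10, 1.58 and 1.31. Its level in Ezh2-KO was 872 CPM, 743 and 719 CPM, and 724 CPM, against 415 CPM, 398 and 526 CPM, and 551 CPM in WT. Cluster 4, which holds no member, had ratios of 0.978, 1.23 and 1.21, and cluster 3, with levels of 18.7 to 24.1 CPM in any library, had 0.887, 0.865 and 1.12. Within cluster 4 the variable gene Trgv1 was higher in Ezh2-KO in every subset. It measured 53.1, 38.5 and 37.4, and 35.2 CPM in Ezh2-KO, against 38.1, 27.3 and 30.1, and 20.8 CPM in WT. Of its windows, 24.7% also occur in Trgv2 or Trgv3. In both CD44+ subsets the ratios of clusters 1 and 2 were above those of clusters 3 and 4, and in CD44- NK1.1- cells cluster 2 stood apart from the other 3.

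**Figure D4:**
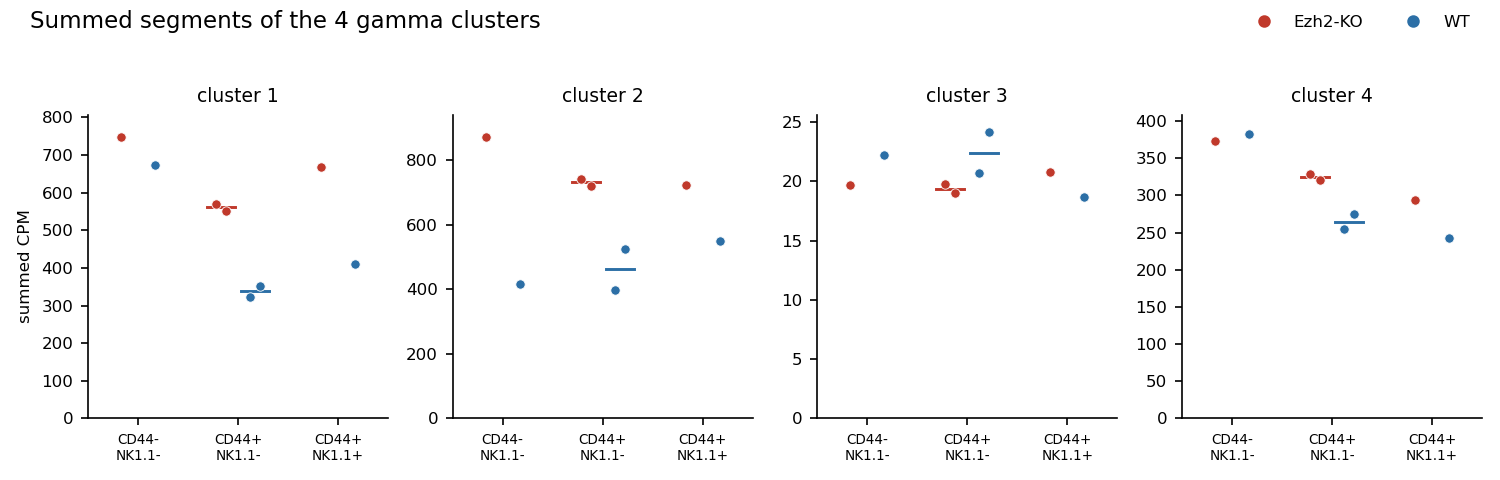
Summed level of all segments of each gamma cluster in CPM (vertical axes start at 0 and differ between panels) by subset, Ezh2-KO left of WT. Points are libraries and bars the means of the 2 CD44+ NK1.1- replicates. Cluster 2 is 2.10 times as high in Ezh2-KO as in WT in CD44- NK1.1- cells, and cluster 1 is 1.66 times as high in CD44+ NK1.1- cells.

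Values were also taken for the 15 gamma and delta segments outside the 10 genes. Trgj1, the joining segment of cluster 1, was called higher in Ezh2-KO CD44+ NK1.1- cells (0.82, SE 0.15, adjusted p = 0.0387), as the only one of the 11 that passed the filter. Trgj2 differed by 0.61 (adjusted p = 0.138), and the cluster 3 genes Trgv3 and Trgc3 by -0.19 (adjusted p = 0.521) and -0.20 (adjusted p = 0.561). Over the 3 subsets edgeR called Trgv1 (0.51, SE 0.08, adjusted p = 0.00841), Trgj2 (0.69, SE 0.15, adjusted p = 0.0271) and Trgj1 (0.60, SE 0.14, adjusted p = 0.0362) higher. None of the others that passed the filter was called there, where 6.43% of tested genes were called higher and 4.89% lower. Trdj2, a delta joining segment, had 12 and 13 counts in Ezh2-KO CD44+ NK1.1- cells against 1 and 0 in WT. Like Trdj1, it stayed below the filter's cutoff in every WT library. Both were thus tested through Ezh2-KO libraries, and the adjusted p of Trdj2 by edgeR, 0.0530, is a description. Trdv4, the delta variable gene that pairs with Trgv5 in epidermal gamma-delta T cells, had 0 counts in the Ezh2-KO CD44- NK1.1- library and in both Ezh2-KO CD44+ NK1.1- libraries and 2 in the Ezh2-KO CD44+ NK1.1+ library, against 0, 4 and 1, and 1 in WT. A count of 0 there allows up to 0.148 CPM, so a difference of Trdv4 between the genotypes was not detectable at this depth.

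Genes that act on or with these segments were counted from lists. Of 7 alpha-beta constant and CD3 genes 1 rose and 0 fell in Ezh2-KO CD44+ NK1.1- cells: Cd247, the CD3 zeta chain gene (0.82, SE 0.09, adjusted p = 0.00747). Trac, whose locus contains the delta segments, measured 570 and 545 CPM in Ezh2-KO against 763 and 667 CPM in WT (-0.36, SE 0.10, adjusted p = 0.124). Of 11 genes of recombination and the pre-receptor, Rag1 and Rag2 included, edgeR called 0 higher and 0 lower (median -0.21, against -0.01 over all genes). Of 16 regulators linked to the gamma and delta loci, such as the interleukin-7 receptor and STAT5 genes, 1 rose and 2 fell. Lef1 rose (1.04, SE 0.13, adjusted p = 0.0121), while Runx3 (-0.86, SE 0.14, adjusted p = 0.0247) and Id2, an inhibitor of E proteins (-0.49, SE 0.09, adjusted p = 0.0353), fell. Il7r measured 648 and 621 CPM in Ezh2-KO against 603 and 669 CPM in WT.

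Because NKT cells share much of their program with gamma-delta T cells, 13 gamma-delta associated genes other than segments were set beside the members. In Ezh2-KO CD44+ NK1.1- cells 2 rose and 1 fell, where 3.78% of all tested genes were called higher and 1.16% lower. The list median was -0.18 against -0.01 over all genes. Sox13, a transcription factor gene of gamma-delta lineages, measured 161 and 155 CPM in Ezh2-KO against 61.8 and 56.8 CPM in WT (1.41, SE 0.10, adjusted p = 0.00163), and the scavenger receptor gene 5830411N06Rik measured 215 and 201 CPM in Ezh2-KO against 107 and 117 CPM in WT (0.90, SE 0.10, adjusted p = 0.00731). Ccr6, a chemokine receptor gene, fell (-1.94, SE 0.28, adjusted p = 0.0186). The list summed to 1149 and 1088 CPM in Ezh2-KO and to 991 and 1047 CPM in WT. In these bulk samples a changed number of gamma-delta T cells and a changed amount of segment RNA per NKT cell cannot be told apart.

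Markers of other cells that a sort could hold also differed between libraries. The 8 markers of NK and innate lymphoid cells summed to 6.69 CPM in CD44- NK1.1-, 61.5 and 60.2 CPM in CD44+ NK1.1- and 498 CPM in CD44+ NK1.1+ cells of Ezh2-KO mice, against 1.75, 23.6 and 5.25, and 159 CPM in WT. None of the 8 was at 0 in every library, though Ncr1 was at 0 in both CD44- NK1.1- libraries, and 2 of the 8 were called higher in Ezh2-KO CD44+ NK1.1- cells, where the median difference of the 8 was -1.60 although their sum was higher. Immature thymocyte markers, 8 in number, summed to 47.0, 42.7 and 30.9, and 74.6 CPM in Ezh2-KO, against 53.0, 98.9 and 45.5, and 66.6 CPM in WT, where WT CD44+ NK1.1- replicate 1 was the highest. The part of either in the segment differences was not tested.

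The genes whose pattern over the 8 libraries was most like that of a member were named by the root mean square of the difference of centred log2 CPM values, over 13377 genes. For Trdc the nearest were Fam160a1 (0.294), Acbd7 (0.347) and Phldb2 (0.374), against 0.957 for the spread of Trdc itself. These 3 neighbours stayed below 1 CPM in every library and below the filter's cutoff in every WT library. They were thus tested through Ezh2-KO libraries, where Trdc is high, and their likeness to Trdc is a description. For Trgc1 they were Sfxn5 (0.0747), Eef2k (0.0901) and Rnf122 (0.103), against a spread of 0.403. Eef2k, the most abundant of these, had 43.5 CPM in CD44- NK1.1-, 34.6 and 33.3 CPM in CD44+ NK1.1- and 41.8 CPM in CD44+ NK1.1+ cells of Ezh2-KO mice, against 41.1, 23.8 and 23.8, and 28.0 CPM in WT. Within the receptor segments Trgv2 and Trgc2 were nearest to each other (0.0326), whereas the nearest segment to Trgv5 was 1.08 away.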

How the data were processed

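Gene expression was measured by RNA-seq in thymic NKT cells of C57BL/6 mice. Per the labels' protocols, RNA was prepared with an RNeasy kit and libraries with a TruSeq RNA kit, and the series' design text gives 4 sequencing lanes per RNA sample. The authors deposited unnormalized read counts for each gene, made, per the submitters' processing notes, with CASAVA, Subread 1.4.3-p1 and featureCounts on build mm10. The sources used here do not give the annotation, the strand setting, the read length or the treatment of reads shared between genes. A changed assignment of shared reads would move the paralogous segments.

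Of 27179 identifiers, 25275 matched a symbol in a RefSeq table. The 8 single-library files held the same counts as the series table. Replicates differed beyond sampling noise (chi-square per degree of freedom 6.38 in Ezh2-KO, 44.7 in WT) and were kept apart.

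Tests used R 4.3.3 with edgeR 4.0.16 (filterByExpr, TMM, glmQLFit with robust=TRUE, glmQLFTest), limma 3.58.1 and DESeq2 1.42.0. A fit of 6 group means left 2 residual degrees of freedom (biological coefficient of variation 0.141). A fit of subset and genotype as added effects left 4 (0.137). Each result was recomputed with scaling by DESeq2 size factors or by library size, with no filter or one of 1 CPM in 2 libraries, with DESeq2's Wald test, limma-voom or robust=FALSE, with each library left out, and, where it applied, with the 4 CD44+ NK1.1- libraries alone and single genotypes for subset comparisons. The scripts were tested on simulated data. Exon sequences came from GENCODE transcripts on GRCm38. The sequences of the gamma constant genes are not reported here. Members, lists, tests and the naming of all members, called list genes and the 3 nearest genes of Trdc and Trgc1 were chosen with earlier results of these data known.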

Additional observations from a re-analysis of the deposited data

How the results depend on the processing

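Among 796 single-member values under an alternative, 671 kept direction and call, 57 gained a call, 63 lost one and 5 changed sign. The sign changes were Trgv4 in CD44- NK1.1- cells (0.0394 by library size alone), Trdc in CD44+ NK1.1- over CD44- NK1.1- cells (-0.0579 in WT alone) and Trdc in CD44+ NK1.1+ over CD44+ NK1.1- cells (-0.0868 by library size, -0.23 in Ezh2-KO alone, and -0.11 to 0.24 with libraries left out, negative without WT CD44+ NK1.1- replicate 2), none of them called. The cause was not tested. The counts of members below cover all 10, Trdv2-1, Trdv2-2 and Trdv5 included, and describe how calls move with the processing. In every comparison the number called over all genes moved too when libraries were left out. The counts are therefore no result about the members. Members called for Ezh2-KO over WT numbered 1 to 10 in CD44+ NK1.1- cells with each library left out, 1 to 8 in CD44+ NK1.1+ cells (3 with no filter, 3 by DESeq2), 0 to 3 in CD44- NK1.1- cells (2 by DESeq2) and 1 to 8 over the 3 subsets. For all genes the count in CD44+ NK1.1- cells ran from 101 to 5792 when libraries were left out. Members called for CD44+ NK1.1- over CD44- NK1.1- numbered 1 to 7 with libraries left out, 4 with no filter and 0 in Ezh2-KO alone. For CD44+ NK1.1+ over CD44+ NK1.1- they numbered 0 to 5 with libraries left out, 1 by library size, 1 by DESeq2, 1 in WT alone and 0 in Ezh2-KO alone, and for CD44+ NK1.1+ over CD44- NK1.1- 3 to 4, or 2 in WT alone. For the interaction with CD44- NK1.1- they numbered 0 to 6, 1 with no filter and 2 by DESeq2, and for that with CD44+ NK1.1+ 0 to 4. DESeq2 did not call Trdv2-1, Trdv2-2 or Trgv6 in CD44+ NK1.1- cells, and limma-voom did not call Trgv4 or Trgv6. No paired analysis was possible because the replicate numbers follow sample order only and pair no libraries. Apart from the 3 subsets, highest without either CD44- NK1.1- library, and CD44+ NK1.1+ over CD44- NK1.1-, the highest of these counts came without WT CD44+ NK1.1- replicate 1 or 2, which leaves the error to the Ezh2-KO pair, and the lowest for CD44+ NK1.1- cells, for the 3 subsets and for CD44+ NK1.1- over CD44- NK1.1- without Ezh2-KO replicate 1 or 2. With 2 replicates in 1 subset and 1 library elsewhere, depth limits the delta variable genes, and sampling limits every call outside CD44+ NK1.1- cells.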
